A study of Mus musculus with 10 samples.

Results

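The 5 genes described here are Ly6d, Dct, S100g, Rbp2 and Ctse, taken from 31053 genes counted in spatial transcriptomic sections of mouse liver and liver tumour. They were chosen from measured values, because each was much higher in 1 tissue than in the others: Ly6d and Dct in NEJ146, S100g and Rbp2 in NEJ723 and Ctse in NEJ687. Their levels across tissues are therefore a description and carry no test. The question asked of them was whether each gene was spread over its whole section or confined to parts of it, and what shared its territory. The idea of 1 gene for 1 tumour held only in part. Dct was also present in NEJ687, and S100g and Rbp2 were high in 4 of the 7 tissues, those the study calls tumours, and highest in NEJ723.

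None of the 5 genes is a classical liver gene. Ly6d encodes a surface protein of the Ly6 family, held in the membrane by a lipid anchor and known from B-cell precursors and squamous epithelium. Dct encodes dopachrome tautomerase, an enzyme of melanin synthesis in melanocytes. S100g encodes calbindin-D9k, a cytosolic calcium-binding protein of enterocytes and a vitamin D target, and Rbp2 encodes the cellular retinol-binding protein of enterocytes. Ctse encodes cathepsin E, an intracellular aspartic protease of gastric epithelium, immune cells and erythroid cells. Embryonal liver tumours can switch on genes of other epithelia, and fetal liver is a blood-forming organ.

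The data were Visium sections, a method in which a frozen section, here of 10 µm, lies on a slide printed with an array of spots, so that each molecule of RNA, counted once by its UMI (unique molecular identifier), is assigned to a spot. There were 10 sections of 7 tissues: NEJ146 had 4 adjacent sections of 1 tumour, and NEJ634, NEJ638, NEJ654, NEJ677, NEJ687 and NEJ723 had 1 section each. Which sections are tumour is not given by the labels, where hepatoblastoma stands for all samples, whereas the study's text describes 4 tumours and 3 healthy livers and names NEJ146, NEJ634, NEJ687 and NEJ723 as tumours, which leaves NEJ638, NEJ654 and NEJ677 as the healthy livers. Each tissue was kept as its own group. The study's tumours arise in ABC-Myc mice on C57BL/6J, which carry human MYC behind a floxed stop under the CAG promoter and Cre under the albumin promoter, so that MYC is switched on in cells of the hepatocyte lineage. The study's normal controls are littermates lacking Cre, the MYC allele or both, and which of these each healthy liver carried is not given in the sources used here. The age of the mice is not given in the labels used here. All libraries were labelled polyA RNA except those of NEJ146, labelled total RNA, and NEJ146 had a mitochondrial share of UMIs of 6.78 to 7.22% against 2.46 to 3.86% in the other tissues. Tissue of NEJ146 and these differences of its libraries cannot be told apart.

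Tissue spots numbered 1890 to 4878 a section and held 39280329 to 117077925 UMIs. Spots were called over tissue by the deposited call or, in NEJ146, where no such call was used, by 8000 or more UMIs. A spot can hold several cells, so fewer cells of a type and less RNA per cell cannot be told apart. All sections drew on the same 4992 spot barcodes of the slide design, of which NEJ677 had 4991 and NEJ723 had 4989. A shared barcode therefore marks a shared array position and not a shared cell. Levels are given as counts per 1000000 UMIs (CPM). With 1 section in 6 of the tissues, the intervals given are 95% exact Poisson intervals, which cover counting error only, and the spread of NEJ146 covers adjacent sections of 1 tumour.

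Against all genes, the 5 stood at the far end of the list. Of 9546 genes that reached 10 CPM in some tissue, 2 were at least 4-fold higher in NEJ146 than in every other tissue on the CPM + 1 scale (0.021%), 4 in NEJ723 (0.0419%) and 4 in NEJ687 (0.0419%). Ly6d was 1 of the 2 in NEJ146, S100g and Rbp2 were 2 of the 4 in NEJ723, and Ctse led the 4 in NEJ687. Dct did not reach 4-fold and ranked 6 of 9546 in NEJ146. Since these values chose the genes, nothing is read from the shares. The other gene past 4-fold in NEJ146 was Bc1, a small cytoplasmic RNA, at 12.1 CPM against 0 to 0.0229 CPM elsewhere. In NEJ723 the others were Apoa4 and Gm47547, and in NEJ687 they were Cldn13, Rhd and Sptb. Just inside and just outside the threshold lay Ly6d (10.4-fold) and Gm3776 (3.38-fold) in NEJ146, Rbp2 (4.37-fold) and Gpc3 (3.72-fold) in NEJ723, and Sptb (4.10-fold) and Ermap (3.65-fold) in NEJ687.

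**Figure D1:**
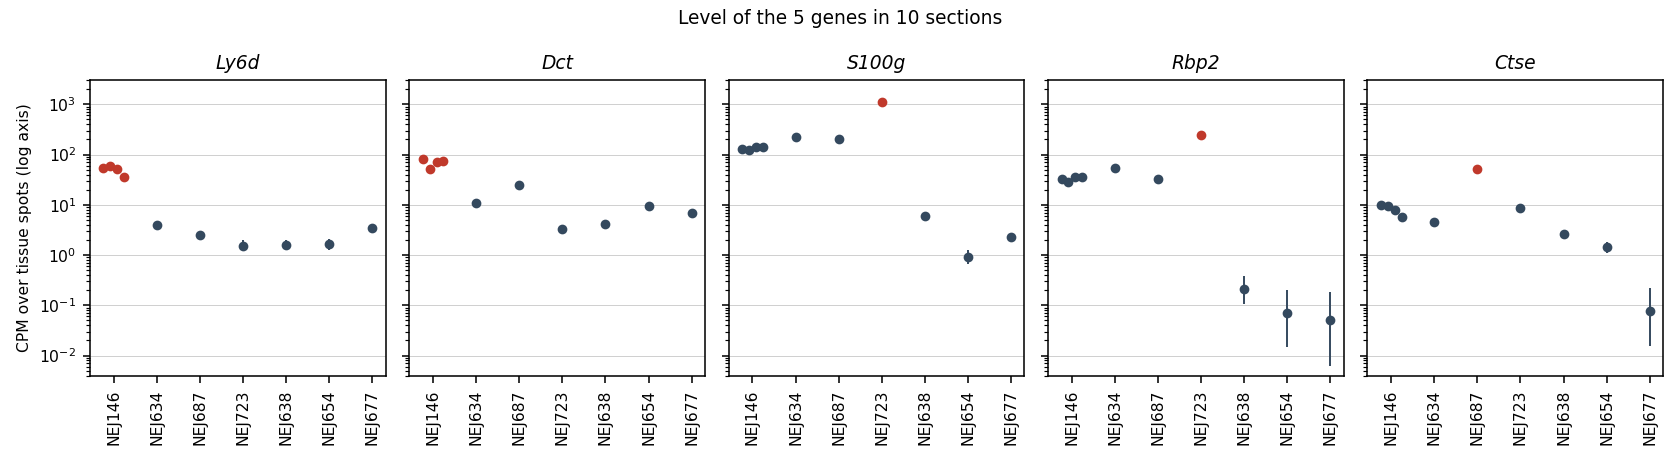
CPM of the 5 genes (log axis) in each section, grouped by tissue, with 95% Poisson intervals as bars and the tissue each gene was chosen for in red. Ly6d is high in the 4 NEJ146 sections alone, whereas S100g and Rbp2 are high in the left 4 tissues and far lower in the right 3.

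Ly6d measured 53.4, 59.6, 50.9 and 35.1 CPM in NEJ146 sections 1 to 4. In the other tissues it measured 3.87 CPM in NEJ634, 3.39 in NEJ677, 2.54 in NEJ687, 1.62 in NEJ654, 1.58 in NEJ638 and 1.54 in NEJ723. All 4 NEJ146 sections lay above every other tissue, and section 4 was the lowest of them. The mean of 49.7 ± 10.4 CPM (SD, n = 4 adjacent sections) was 12.8-fold the level in NEJ634, with 9.05- to 15.4-fold for single sections. Among the low tissues, the intervals of NEJ634 (3.38 to 4.42) and NEJ677 (2.83 to 4.01) overlapped, as did those of NEJ654, NEJ638 and NEJ723.

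Within NEJ146, Ly6d was local. At least 1 Ly6d UMI was found in 33.5, 42.1, 38.4 and 26.9% of tissue spots of sections 1 to 4, where an even spread of the same UMIs over spots of these depths would give 60.8, 67.4, 67.1 and 48.8%. Single spots held up to 38, 90, 41 and 21 Ly6d UMIs. The coefficient of variation (CV) of expression between spots, after removal of counting noise, was 1.82 ± 0.107 (SD, n = 4 sections), and the part shared by adjacent spots, here called the patch CV, was 1.295 ± 0.164. Among genes at 10 CPM or more in the same sections the median spot CV was 0.234 to 0.255, and between 0.697 and 0.795% had a higher one than Ly6d. The same value was 0.320 to 0.365 for H19, an imprinted RNA of fetal liver, and 0.717 to 0.942 for Alb, the albumin gene.

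Blocks of 13 array rows by 16 columns with 100000 or more UMIs showed the layout. In section 1, Ly6d ran from 0 to 167 CPM over 48 blocks with a median of 16.5, in section 2 from 0 to 164 over 47 with a median of 46.2, in section 3 from 3.76 to 148 over 48 with a median of 25.0, and in section 4 from 0.707 to 130 over 45 with a median of 11.6. The high blocks formed a broad band, in the lower part of the array in sections 1, 3 and 4 and nearer its middle in section 2. The relative covariance of Ly6d between spots (the covariance of their levels over the squared mean) declined with distance, from 1.70 at 1 array step to 1.14 at 4, 0.815 at 8 and 0.371 at 16 steps (means of 4 sections). Blocks above the 3.87 CPM of NEJ634 numbered 45 of 48, 46 of 47, 47 of 48 and 33 of 45, so outside the band the level was low but mostly still above that of the other tissues.

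**Figure D2:**
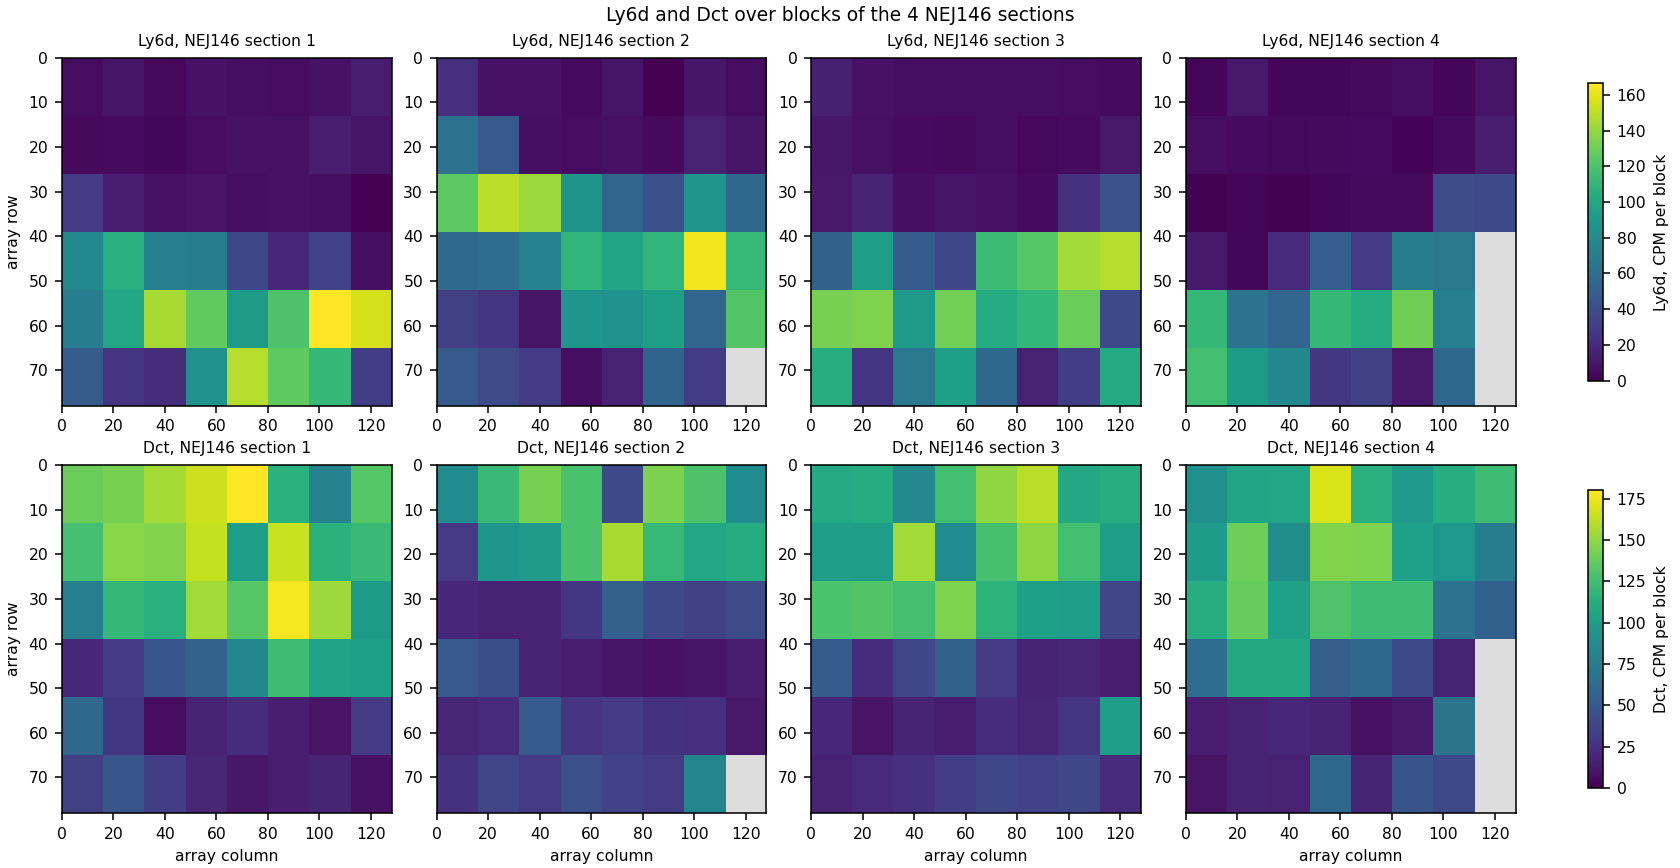
Ly6d (upper row) and Dct (lower row) in CPM over blocks of 13 array rows by 16 array columns in the 4 NEJ146 sections, with 1 colour scale per gene and grey for blocks under 100000 UMIs. Ly6d is high in a band below the high Dct blocks, which fill the upper part of every section.

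The 5 genes nearest to Ly6d over blocks of NEJ146 were liver genes. By Spearman correlation over blocks, averaged over the 4 sections, the 5 nearest of 5045 genes were Cyp2a12 (rho 0.92), Mettl7b (0.92), Cyp2a5 (0.92), Cyp2f2 (0.92) and Gstm2 (0.91). Between single spots, with counting noise removed, their correlations with Ly6d were 0.53, 0.66, 0.72, 0.29 and 0.78, so Cyp2f2 followed Ly6d least at that scale. The 3 Cyp genes encode cytochrome P450 enzymes of hepatocytes, Gstm2 a glutathione transferase and Mettl7b a methyltransferase of lipid droplets. None of the 5 was highest in NEJ146: Cyp2a5, for example, measured 219 CPM there and 731 CPM in NEJ638. The genes most opposed to Ly6d were Dctpp1 (-0.86), a nucleotide pyrophosphatase, Slc20a1 (-0.86), a phosphate transporter, and Immt (-0.85), a mitochondrial inner membrane protein. Over all genes the median rho was -0.16, with 5th and 95th percentiles of -0.71 and 0.78. Blocks of a section share 1 library, and a gene high in one place lowers the CPM of others there, so these values are descriptions without a p.

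Summed gene lists also varied with Ly6d. Its rho over blocks was 0.84 with 8 hepatocyte genes (0.77 to 0.90 in single sections), 0.77 with 6 stromal genes and 0.74 with 9 genes of antigen-presenting dendritic cells. Of these last 9, 4 reached 10 CPM in NEJ146 and 3 lay under 1 CPM. Their median was 4.21 CPM beside a sum of 225 CPM, so a few genes carried the value. For 15 enterocyte genes the rho was 0.77, but Apoa4, also a liver gene, made up 282 of their 407 CPM and 9 of them lay under 1 CPM. For 6 bile duct genes it was 0.76, with Spp1, the osteopontin gene, at 110 of their 132 CPM. It was -0.76 with 5 proliferation genes (-0.83 to -0.69). The 5 genes named as tumour markers, Afp, Igf2, H19, Dlk1 and Gpc3, gave -0.72, but H19 made up 6062 of their 8198 CPM, and singly H19 gave -0.73, Afp -0.39 and Igf2 0.03 (-0.24 to 0.24). Between single spots, with counting noise removed, the correlation of Ly6d was -0.49 with H19, -0.36 with Afp and -0.22 with Igf2 (-0.29 to -0.12). Over blocks, the rho of Ly6d with UMIs per spot, a measure of depth, was 0.32 (0.10 to 0.47), and with the mitochondrial share 0.12 (-0.11 to 0.41). Alb was nevertheless low in NEJ146: its highest block had 21597 CPM, against 51663 to 85700 CPM for whole sections of NEJ638, NEJ654 and NEJ677.

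Defining genes of the 2 cell types best known for Ly6d were at low levels in NEJ146, so their sums measure those cells poorly. The 12 B-cell genes summed to 35.1 to 51.2 CPM in NEJ146 and 15.4 to 29.1 CPM in the other tissues, mostly Igkc and Ighm, and 8 of them lay under 1 CPM in NEJ146, among them Pax5 (0.07 CPM). Only Igkc and Ighm were tested, and both were highest in NEJ146, at 22.7 and 12.1 CPM, beside 3.31% of all tested genes. The rho of the sum with Ly6d was -0.12 (-0.18 to -0.06) and is mainly that of these immunoglobulin genes. Of 10 squamous epithelial genes, 8 lay under 1 CPM in NEJ146, with Krt5 at 6 UMIs, Krt14 at 1 UMI and Dsg3 at 0 UMIs over the 4 sections. Krt10 made up 11.3 of their 13.5 CPM, and the rho of the sum, -0.05 (-0.23 to 0.15), says nothing of the other genes. Of the 23 Ly6 family genes in the files, 6 were tested and only Ly6d, chosen by these values, was highest in NEJ146. Ly6e, the most abundant of the family, measured 570 CPM in NEJ146 and 980 CPM in NEJ723. Without Ly6d the summed family had a rho of 0.82 with it over blocks, but Ly6e made up 570 of the sum's 657 CPM, so the value is mainly that of Ly6e.

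Dct measured 80.0, 52.0, 71.5 and 74.8 CPM in NEJ146 sections 1 to 4. In the other tissues it measured 25.3 CPM in NEJ687, 11.0 in NEJ634, 9.27 in NEJ654, 6.77 in NEJ677, 4.08 in NEJ638 and 3.35 in NEJ723. All NEJ146 sections lay above NEJ687, which in turn lay above the rest. The mean of 69.6 ± 12.2 CPM (SD, n = 4) was 2.75-fold the level in NEJ687, with 2.05- to 3.16-fold for single sections. The intervals of NEJ634 (10.2 to 11.9) and NEJ654 (8.38 to 10.2) touched, as did those of NEJ638 and NEJ723.

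For the sequence beside these levels, 250 bases before the RefSeq start of 3 of the genes (build GRCm38.p6) are shown, since Dct is read in pigment cells through E-boxes and S100g and Rbp2 were high in the same 4 tissues. Windows matched Dct (chr14:118052247-118052496, minus strand), S100g (chrX:162964600-162964849, minus strand) and Rbp2 (chr9:98490287-98490536, plus strand). None overlapped an annotated exon of its gene, and that of Rbp2 lay inside the gene's GENCODE extent of 98486115 to 98509781, before a start used by RefSeq. Capitals mark matches, on either strand, to any of 6 motifs: TATAAA (the TATA box), CATGTG (an E-box), TGNACTTTG (HNF4 type), GTTAAT (HNF1 type), TTTATG (CDX type) and AGGTCA (nuclear receptor type). No matches overlapped.
Dct: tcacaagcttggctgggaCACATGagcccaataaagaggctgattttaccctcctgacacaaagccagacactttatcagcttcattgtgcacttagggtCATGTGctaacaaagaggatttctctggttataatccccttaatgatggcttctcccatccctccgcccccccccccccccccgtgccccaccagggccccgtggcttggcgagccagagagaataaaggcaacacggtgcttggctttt
S100g: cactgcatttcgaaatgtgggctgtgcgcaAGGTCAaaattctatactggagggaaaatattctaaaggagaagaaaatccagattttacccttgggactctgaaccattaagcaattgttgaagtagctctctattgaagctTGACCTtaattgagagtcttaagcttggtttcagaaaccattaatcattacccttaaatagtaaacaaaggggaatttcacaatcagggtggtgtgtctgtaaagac
Rbp2: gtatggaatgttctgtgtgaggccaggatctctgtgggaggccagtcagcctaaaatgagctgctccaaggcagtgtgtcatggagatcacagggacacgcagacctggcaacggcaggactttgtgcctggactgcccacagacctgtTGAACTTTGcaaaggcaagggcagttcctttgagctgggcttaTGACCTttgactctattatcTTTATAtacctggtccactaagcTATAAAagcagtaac

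The Dct window held CATGTG on both strands, at bases 150 to 145 and 232 to 227 before the start, a motif found in 12.3% of 32536 windows of this length. S100g held AGGTCA at bases 220 to 215 and, on the other strand, at 107 to 102 (14.0% of windows). Rbp2 held AGGTCA at 58 to 53, TATAAA at 38 to 33 and 15 to 10 (12.3%), and TGNACTTTG at 101 to 93 (1.20%). The motif shared by S100g and Rbp2 was thus AGGTCA alone. GTTAAT (6.47%) and TTTATG (10.8%) were in none of the 3 windows. A match is a string of letters and was not tested as a site.

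Dct was patchy in NEJ146, but less so than Ly6d. It was found in 63.0, 51.8, 63.5 and 61.9% of tissue spots of sections 1 to 4, against 74.3, 62.9, 77.9 and 74.2% for an even spread. The spot CV was 0.869 ± 0.0742 (SD, n = 4), and of this variance 85.03% was shared by adjacent spots, compared with 50.45% for Ly6d. Its blocks ran from 5.86 to 180 CPM in section 1, 9.03 to 157 in section 2, 9.65 to 162 in section 3 and 8.06 to 170 in section 4. High blocks filled the upper part of the array in all 4 sections. The relative covariance between spots was 0.647 at 1 step and still 0.282 at 16 steps, a flatter course than that of Ly6d.

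Dct and Ly6d ran opposite to each other over the tumour. Their rho over blocks was -0.83, -0.84, -0.86 and -0.83 in sections 1 to 4. Between single spots, with counting noise removed, their correlation was -0.49, -0.44, -0.50 and -0.51. S100g and Rbp2, at their lower levels in NEJ146, went with Dct (rho 0.72 and 0.67) and against Ly6d (-0.73 and -0.67). H19 went with Dct (0.67) and against Ly6d (-0.73), and Alb did the opposite (-0.85 and 0.90). The direction of each of these was the same in all 4 sections, which are adjacent and show 1 tumour.

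The genes nearest to Dct over blocks of NEJ146 were Slc36a2 (rho 0.90), an amino acid transporter, Gldc (0.89), the glycine decarboxylase of mitochondria, Trrap (0.88), a scaffold of histone acetyltransferase complexes that binds MYC, Rogdi (0.87) and Ftcd (0.87), an enzyme of histidine breakdown. Most opposed were Hp (-0.90), the haptoglobin gene, Aldh1a1 (-0.89), a retinal dehydrogenase, and Hspb8 (-0.88), a small heat shock protein. Over all 5045 genes the median rho with Dct was 0.13, with 5th and 95th percentiles of -0.76 and 0.71. These 8 genes could be looked at again in NEJ687, where Dct had 1454 UMIs and which had not been used to pick them. There all 5 of the first kind had a rho above 0 (0.36 to 0.77) and all 3 of the second kind were below 0 (-0.74 to -0.60). In NEJ634, with 623 Dct UMIs, 4 of 5 were above 0 (-0.12 to 0.41, median 0.12) and 3 of 3 below (-0.42 to -0.21). There Dct had a rho of -0.54 with UMIs per spot, and the share of all genes above 0 is not given, so these counts are descriptions. Other relations of Dct in NEJ634 were opposite in sign to those in NEJ146: its rho was -0.69 with H19, 0.42 with Alb, 0.56 with the Ly6 family, 0.54 with the enterocyte genes, 0.37 with the hepatocyte genes and -0.68 with the erythroid genes. Slc36a2 itself was higher in NEJ687 (47.8 CPM) than in NEJ146 (30.4 CPM).

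Other pigment genes were near absent. Over the 4 NEJ146 sections Tyr had 1 UMI, Tyrp1 and Oca2 had 0 UMIs, and 8 of 11 melanocyte genes lay under 1 CPM. The list summed to 5.94 to 6.98 CPM in NEJ146 and 3.79 to 9.69 CPM in the other tissues, none of its genes reached 10 CPM in any tissue, and its rho with Dct was 0.25 (0.09 to 0.49). Mlana, a melanosome protein, measured 2.31 CPM in NEJ146, 1.39 in NEJ687 and 0 in NEJ638, NEJ654 and NEJ677. In NEJ146 the lists most opposed to Dct were the Ly6 family (-0.87), mostly Ly6e, and the enterocyte genes (-0.81), mostly Apoa4, followed by the bile duct (-0.78), mostly Spp1, stromal (-0.78) and hepatocyte genes (-0.76). The proliferation genes gave 0.68 and the erythroid genes 0.56. With UMIs per spot its rho was -0.32 (-0.47 to -0.20). In NEJ687 the hepatocyte genes gave -0.01, the proliferation genes -0.37, the erythroid genes -0.48 and Rbp2 -0.11, unlike in NEJ146, although this difference was not tested. The sign of NEJ146 was kept in NEJ687 by H19 (0.71), S100g (0.64), Alb (-0.52), the enterocyte genes (-0.54), the stromal genes (-0.60), the bile duct genes (-0.22) and the Ly6 family (-0.17).

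S100g measured 1101 CPM in NEJ723, 224 in NEJ634, 201 in NEJ687 and 126.5, 124.1, 141.3 and 139.9 in NEJ146 sections 1 to 4. In the remaining tissues it measured 6.08 CPM in NEJ638, 2.24 in NEJ677 and 0.918 in NEJ654. The order had a wide gap between NEJ723 and NEJ634, and another between NEJ146 and NEJ638, with no overlap of intervals at either. The level in NEJ723 was 4.92-fold that in NEJ634 (4.83 to 5.02, counting error only). NEJ634 (220 to 228) and NEJ687 (198 to 205) also lay apart by counting error, which leaves out any spread between animals.

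In NEJ723, S100g covered the whole of the called tissue, although spots outside the call held 37.5% of the section's UMIs. It was found in 92.1% of tissue spots, against 92.8% for an even spread, and 182 of the 2396 spots held under 500 UMIs in all. All 32 blocks, from 702 to 1436 CPM with a median of 1091, lay above the level in NEJ634. The spot CV was 0.344 and the patch CV 0.246, and the covariance between spots was 0.0119 at 4 steps and 0.00288 at 8. By comparison Afp, a fetal serum protein of liver tumours, had a spot CV of 0.223 in NEJ723 and Alb 0.313. The median over 8342 genes at 10 CPM or more there was 0.157, and 12.6% of them had a higher spot CV than S100g, so S100g was present throughout the called tissue but more uneven than most genes. The spot CV of S100g was higher elsewhere, at 0.563 in NEJ634, 0.529 in NEJ687 and 0.528 ± 0.0140 (SD, n = 4) in NEJ146. Sections of these tissues also had higher medians over genes, of 0.201, 0.195 and 0.234 to 0.255. The share of genes above S100g was 6.49% in NEJ634, 6.70% in NEJ687 and 9.50 to 11.6% in NEJ146, so beside its section S100g in NEJ146 was about as uneven as in NEJ723. In NEJ687 the S100g blocks ran from 89.6 to 541 CPM, with the highest toward the right edge of the array.

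**Figure D3:**
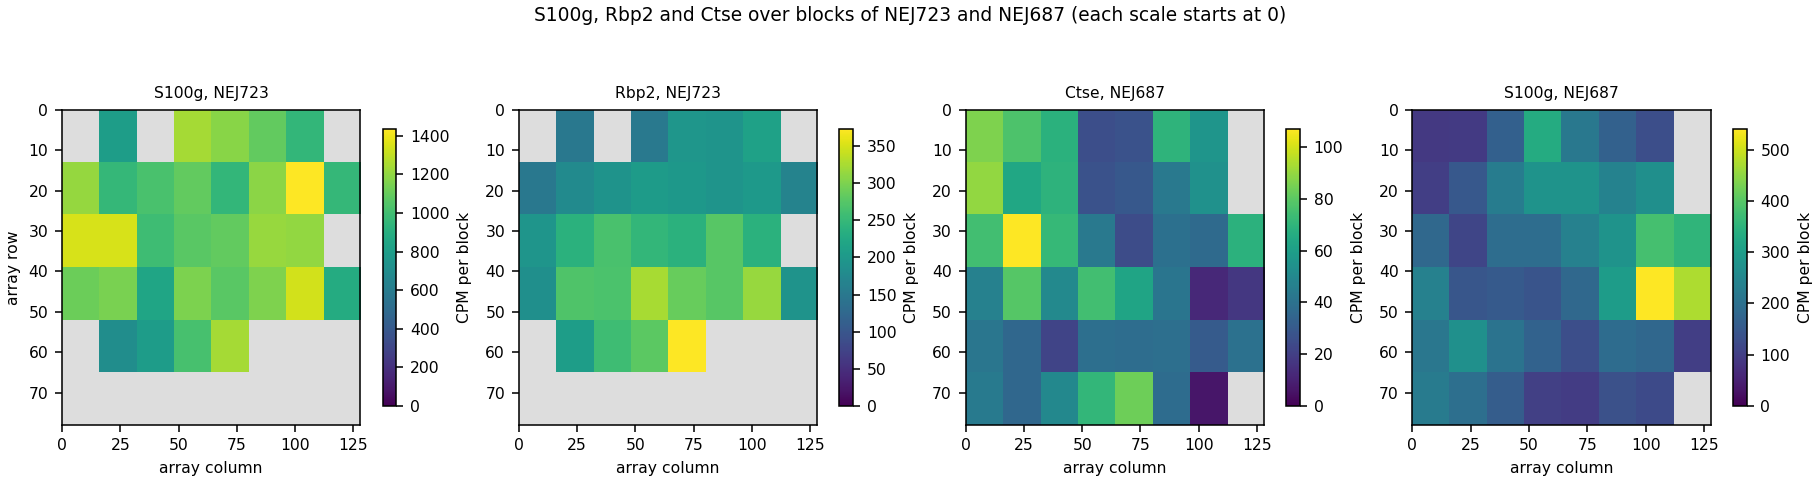
CPM over blocks of 13 array rows by 16 array columns for S100g and Rbp2 in NEJ723 and for Ctse and S100g in NEJ687, each with a scale of its own that starts at 0, and grey for blocks under 100000 UMIs. S100g and Rbp2 are present in all 32 blocks of NEJ723, Rbp2 with a gradient down the array, whereas Ctse in NEJ687 is highest in blocks on the upper left.

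No gene followed S100g closely within NEJ723. The nearest of 6018 genes were Igfbp2 (rho 0.57), Ttpa (0.57), Ost4 (0.57), Ephx1 (0.56) and Eef1akmt4 (0.55), and the most opposed were Sec61a2 (-0.71), Bex1 (-0.59) and Dbf4 (-0.59). Of the 5 nearest, 3 were above 0 in NEJ634, 2 in NEJ687 and 2 in NEJ146. Of the 3 opposed genes, 3 were below 0 in NEJ634, 2 in NEJ687 and 0 in NEJ146. The share of all genes above 0 in these tissues is not given, so these counts are descriptions. Over all 6018 genes of NEJ723 the median rho with S100g was -0.04, with 5th and 95th percentiles of -0.34 and 0.29. In NEJ687, S100g went with H19 (0.83) and against Alb (-0.85), with 0.27 for Afp. In NEJ634 it went with H19 (0.66) and against Afp (-0.61), with -0.17 for Alb. In NEJ723 H19 measured only 11.96 CPM, and the rho was -0.09. In NEJ146, S100g also went with H19 (0.66) and against Alb (-0.76), the same direction for H19 in all 3 of these tissues. Afp gave 0.24 in NEJ146 (0.03 to 0.34), unlike in NEJ634. The rho of S100g with UMIs per spot was -0.36 in NEJ687, 0.23 in NEJ634 and -0.25 in NEJ146.

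Genes of vitamin D action and calcium transport were low or moderate beside S100g. Of the 11 genes, 4 were tested. S100g, chosen by these values, was highest in NEJ723 and past 4-fold, and of the other 3, Atp2b1 alone was highest there, beside 31.5% of all tested genes, and 0 passed 4-fold, which 0.0419% of all did. Trpv6, the calcium channel of enterocytes, measured 0.39 CPM in NEJ723, Vdr, the vitamin D receptor, 0.41 CPM, and Cyp24a1, the vitamin D hydroxylase, 0 CPM. Atp2b1, a calcium pump of the plasma membrane, measured 34.6 CPM in NEJ723 and 14.0 to 29.7 CPM elsewhere. Without S100g, the list had a rho of 0.43 with S100g over blocks of NEJ723, where Rxra, a partner of many nuclear receptors, made up 79.9 of its 116 CPM. It was 0.57 in NEJ634, 0.48 in NEJ687 and -0.39 to -0.27 in the sections of NEJ146.

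Rbp2 measured 244 CPM in NEJ723, 55.0 in NEJ634, 32.3 in NEJ687 and 32.4, 28.2, 35.6 and 36.0 in NEJ146 sections 1 to 4. In NEJ638, NEJ654 and NEJ677 it was at 11, 3 and 2 UMIs, or 0.215, 0.0706 and 0.0509 CPM, the last 2 being at or under the floor of 3 UMIs. The order was that of S100g for NEJ723 and NEJ634, and NEJ687 lay within the range of the NEJ146 sections. The level in NEJ723 was 4.43-fold that in NEJ634 (4.26 to 4.62, counting error only).

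Like S100g, Rbp2 covered the called tissue of NEJ723. It was found in 86.3% of tissue spots against 88.1% for an even spread. All 32 blocks, from 150 to 373 CPM with a median of 211, lay above the level in NEJ634. The spot CV was 0.304 and the patch CV 0.228, close to those of S100g, and 17.3% of the genes in NEJ723 had a higher spot CV. The course with distance was flatter, with a covariance of 0.0294 at 4 steps and 0.0232 at 8, and levels were higher in the lower blocks of the array. In NEJ146 Rbp2 was much less even, with a spot CV of 0.945 ± 0.0267 (SD, n = 4) and blocks from 3.51 to 147 CPM over the 4 sections, and in NEJ634 and NEJ687 it was between (0.512 and 0.513).

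Over blocks of NEJ723, Rbp2 went with hepatocyte genes. Its rho over blocks was 0.84 with the 8 hepatocyte genes, 0.81 with Alb, 0.70 with Igf2 and 0.61 with Afp, and -0.78 with the proliferation genes and -0.54 with the erythroid genes. The erythroid genes gave -0.32 in NEJ634, 0.39 in NEJ687 and 0.45 in NEJ146. Between single spots, with counting noise removed, the correlation was 0.45 with Alb and 0.20 with Igf2 but -0.10 with Afp. The nearest genes were Apoa1 (0.88), the main protein of high-density lipoprotein, Cisd1 (0.87), a mitochondrial iron-sulfur protein, Cox6a1 (0.87) and Ndufc2 (0.87), subunits of respiratory complexes, and Pemt (0.86), which makes phosphatidylcholine. Eif4a1 (-0.90), a translation initiation helicase, Mta2 (-0.86), of the NuRD complex, and Zc3h7a (-0.86) were the most opposed. Of the 5 nearest, 4 were above 0 in NEJ634 (median 0.24), 3 in NEJ687 (0.05) and 5 in NEJ146 (0.38). Of the 3 opposed genes, 1 was below 0 in NEJ634, 1 in NEJ687 and 0 in NEJ146 (median 0.31). The share of all genes above 0 in these tissues is not given, so these counts are descriptions. Over all 6018 genes of NEJ723 the median rho with Rbp2 was -0.21, with 5th and 95th percentiles of -0.63 and 0.48. In NEJ723 Rbp2 also went with UMIs per spot (0.41) and with the mitochondrial share (0.46), whose part in these values was not tested. In NEJ146 some directions were turned, with -0.48 for the hepatocyte genes (-0.51 to -0.44 in single sections), -0.58 for Alb and 0.74 for the proliferation genes (0.71 to 0.76). Those with Afp (0.64) and Igf2 (0.15, or 0.00 to 0.28 in single sections) were not. In NEJ634 the hepatocyte genes gave 0.47 and the proliferation genes 0.17, and in NEJ687 0.16 and 0.21.

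The likeness of S100g and Rbp2 within a section differed with the tissue. Over the 7 tissues both had the same 4 tissues on top and NEJ723 highest, values that chose them. Over blocks of NEJ723 their rho was 0.15, over NEJ634 0.08 and over NEJ687 -0.13. In NEJ146 it was 0.62, 0.53, 0.62 and 0.66 in sections 1 to 4. Between single spots, with counting noise removed, their correlation was 0.46 in NEJ723, -0.07 in NEJ634, -0.18 in NEJ687 and 0.25 to 0.49 in NEJ146. The value over blocks is a rank correlation and that between spots a moment estimate, so the sizes of the 2 cannot be compared.

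Of 15 enterocyte genes, 6 were tested, 4 were highest in NEJ723 (31.5% of all tested genes) and Apoa4 alone passed 4-fold (0.0419% of all). Apoa4, a lipoprotein component of enterocytes and also of liver, measured 7070 CPM in NEJ723, 685 in NEJ687 and 657 in NEJ634. Krt20, an intestinal keratin, measured 20.2 CPM in NEJ723 and 9.94 CPM in NEJ634. Cdx2 and Cdx1, the intestinal homeobox genes, had 4 and 3 UMIs in NEJ723, Alpi 9, Sis 2 and Hnf4g 0 UMIs. The summed list had a rho of 0.05 with S100g and 0.08 with Rbp2 over blocks of NEJ723, but Apoa4 made up 7070 of its 7323 CPM, so these values say nothing of the other enterocyte genes. Of 23 genes of retinoid handling, 15 were tested. Beside Rbp2, chosen by these values, 1 was highest in NEJ723, Bco1, the carotene-cleaving enzyme (13.7 CPM there and 7.01 to 11.9 elsewhere). Lrat, which esterifies retinol, was lowest in NEJ723 (1.33 CPM against 7.31 to 25.99), and so was Aldh1a1 (16.8 CPM against 42.8 to 1093). Without Rbp2 the list had a rho of 0.73 with it in NEJ723, where Rbp4, the retinol carrier secreted by hepatocytes, made up 4784 of its 5464 CPM, but -0.15 in NEJ634, -0.12 in NEJ687 and -0.22 in NEJ146 (-0.43 to 0.17 in single sections).

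Ctse measured 52.1 CPM in NEJ687 (50.3 to 54.0). It measured 9.82, 9.30, 7.89 and 5.75 CPM in NEJ146 sections 1 to 4, 8.50 in NEJ723, 4.56 in NEJ634, 2.64 in NEJ638, 1.44 in NEJ654 and 0.0764 in NEJ677, the last from 3 UMIs. NEJ687 lay far above the rest, and NEJ723 lay within the range of the NEJ146 sections. The level in NEJ687 was 6.13-fold that in NEJ723 (5.50 to 6.85, counting error only).

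In NEJ687, Ctse was present over most of the section in unequal amounts. It was found in 38.4% of 4458 tissue spots, against 44.9% for an even spread, with up to 14 UMIs in a spot. The blocks ran from 6.35 to 107 CPM with a median of 43.3, and 44 of 45 lay above the 8.50 CPM of NEJ723. The spot CV was 0.930 and the patch CV 0.627, against 0.255 and 0.186 for Afp in the same section, and 2.08% of 8163 genes at 10 CPM or more there had a higher spot CV. The covariance between spots was 0.393 at 1 step, 0.195 at 4 and 0.0720 at 8, a steeper relative decline than that of Dct or Ly6d. In NEJ146 the spot CV of Ctse was 1.18 ± 0.101 (SD, n = 3 sections with 500 or more UMIs).

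**Figure D4:**
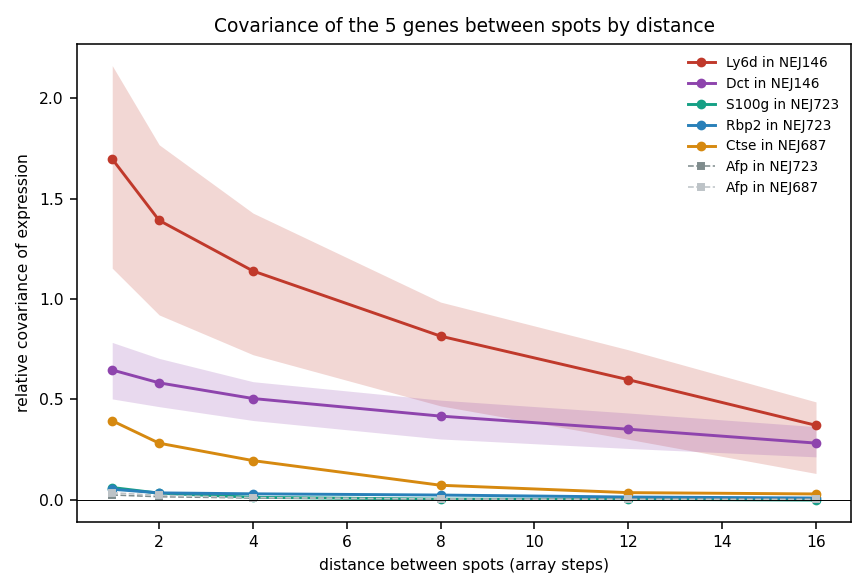
Relative covariance of expression between tissue spots against their distance in array steps for each gene in its tissue, as means of 4 sections with the range shaded for Ly6d and Dct, and for Afp in NEJ723 and NEJ687 as dashed lines. Ly6d starts at 1.70 and Dct at 0.647, both still well above 0 at 16 steps, Ctse starts at 0.393, and S100g and Rbp2 lie near 0 with Afp.

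The genes nearest to Ctse over blocks of NEJ687 included several known from red cells. They were Cldn13 (rho 0.93), Slc4a1 (0.88), the anion exchanger of the red cell membrane, Cd24a (0.86), Kcnn4 (0.86), a calcium-gated potassium channel of red cells, and Tspan33 (0.85), a tetraspanin of red cell precursors. The most opposed were Slc25a4 (-0.77), Efna1 (-0.70) and Anxa6 (-0.69). Over all 5816 genes of NEJ687 the median rho with Ctse was 0.07, with 5th and 95th percentiles of -0.35 and 0.47. NEJ146 had not been used to pick these genes, and there all of the 5 nearest were again above 0, with mean rho between 0.62 and 0.78. The 3 opposed genes gave 0.03 to 0.21 in NEJ146 on the other side of 0. Kcnn4 had values in sections 2 and 3 alone (0.47 and 0.77). In NEJ146 Ctse had a rho of -0.35 with UMIs per spot (-0.46 to -0.22). The share of all genes above 0 there is not given, so these counts are descriptions.

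The summed erythroid genes had a rho of 0.67 with Ctse in NEJ687 and 0.55 to 0.60 in 3 sections of NEJ146. Of the 16 in the files, 15 were tested and 14 were highest in NEJ687, beside 17.5% of all tested genes, and 2 passed 4-fold there (Rhd and Sptb) against 0.0419% of all. Slc4a1 measured 195 CPM in NEJ687, 54.6 in NEJ723, 41.4 in NEJ146 and 14.5 in NEJ634, and under 1 CPM in the other 3 tissues. Gata1, the erythroid transcription factor, measured 9.12 CPM in NEJ687 and 0 to 4.19 CPM elsewhere. The whole list summed to 3208 CPM in NEJ687, 2781 to 2885 CPM in NEJ146 and 52.5 to 1093 CPM in the others. Hba-a1, an alpha-globin gene, made up 1608 CPM of the sum in NEJ687 and 1774 CPM in NEJ146. It was the largest part in both, so the rho of the list weighs this gene most. The part of red cell precursors in the level of Ctse was not tested.

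Lists for other known sources of Ctse differed between the tissues. Of 12 gastric genes, 11 lay under 1 CPM in NEJ687, 8 of them without a UMI, and the list's rho of 0.52 with Ctse rested on Atp4a, at 19.2 of 19.9 CPM; in NEJ146 it was -0.04. The 9 macrophage genes were abundant in NEJ687 (1734 CPM, against 306.7 to 1007 CPM in sections of the other tissues) but had a rho of -0.06 with Ctse there and of 0.34 (0.16 to 0.44) in 3 sections of NEJ146. Genes of antigen-presenting dendritic cells gave 0.26 in NEJ687 and -0.07 in NEJ146, and proliferation genes 0.64 and 0.32. Of 21 cathepsins and related aspartic proteases, 15 were tested. Ctse, chosen by these values, was highest in NEJ687 and past 4-fold, and of the other 14 tested, 9 were highest in NEJ687, beside 17.5% of all tested genes, and 0 passed 4-fold, which 0.0419% of all did. The lysosomal cathepsins Ctsd and Ctsb measured 1042 and 1566 CPM in NEJ687, 1.26- and 1.25-fold the next tissue on the CPM + 1 scale. Without Ctse the list gave a rho of -0.19 with it in NEJ687 and of 0.46 (0.35 to 0.58) in NEJ146, against 0.58 there for the erythroid genes.

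**Figure D5:**
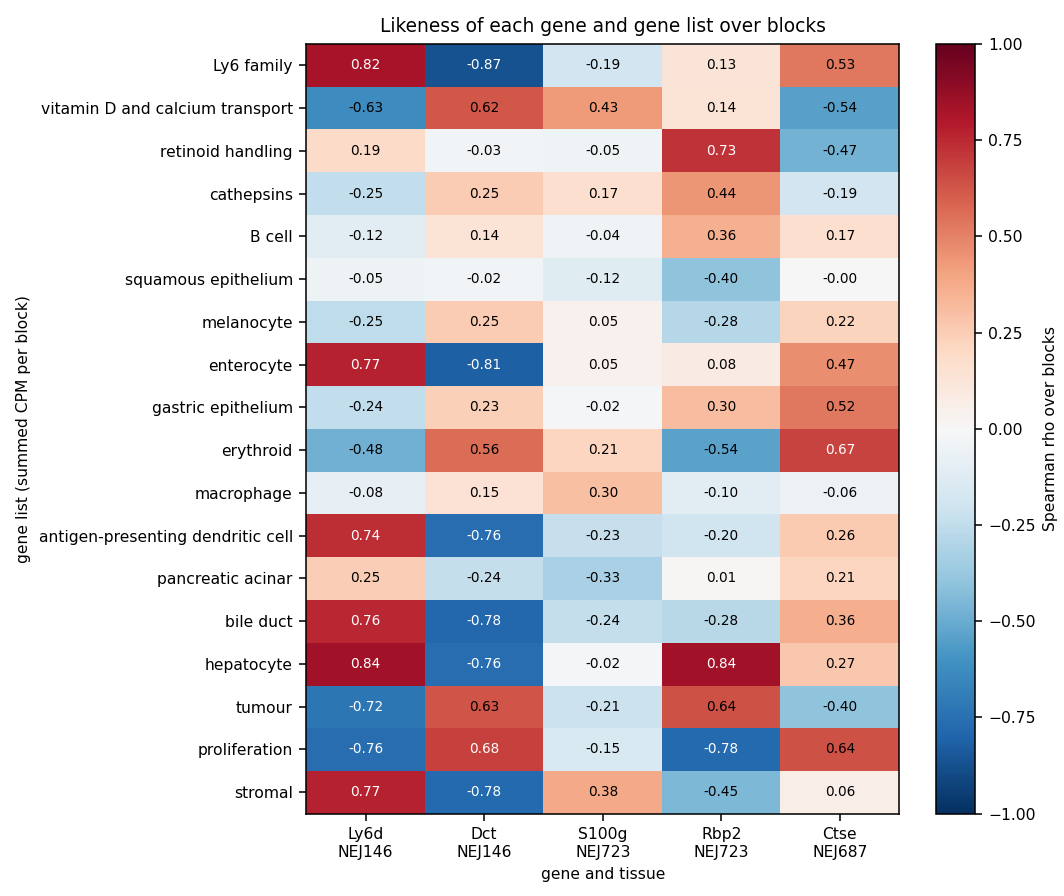
Spearman rho over blocks between each gene and the summed CPM of each gene list in the gene's tissue (the gene itself left out of its list), as the mean of 4 sections for Ly6d and Dct, from -1 (blue) to 1 (red). Ly6d and Dct differ in sign for most lists, Rbp2 goes with hepatocyte genes (0.84) and against proliferation genes (-0.78), and Ctse goes with erythroid genes (0.67).

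The genes lie apart in the genome. Ly6d lies on chromosome 15 (74762056 to 74763620, minus strand), Dct on chromosome 14 (118012790 to 118052244, minus strand), S100g on the X chromosome (162961992 to 162964599, minus strand), Rbp2 on chromosome 9 (98486115 to 98509781, plus strand) and Ctse on chromosome 1 (131638306 to 131675505, plus strand), in GRCm38. Of the 50 neighbours, 10 for each gene, 18 reached 10 CPM in some tissue, 1 of them beside Ly6d. The highest ratio of the gene's tissue over every other was 1.53, for Rbbp7 beside S100g, and none reached 4-fold, which only 0.021 to 0.0419% of all tested genes did, so the absence says little. Ly6d sits among other Ly6 family genes, of which Slurp1, Slurp2, Lypd2, Gml and Gml2 were under 0.1 CPM in every tissue.

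Across the 7 tissues, the genes with the profile most like Ly6d (Pearson r of log2(CPM + 1), among 2487 genes with a range of 2 or more) were Bc1 (0.97), Gm3776 (0.94) and Gsta1 (0.93), and those most like Dct were Gm3776 (0.96), Lrp11 (0.95) and mt-Atp8 (0.90). For S100g they were Spata24, Pus7 and Exosc1, with r of 0.998, 0.996 and 0.996, and for Rbp2 Haus1, 2200002J24Rik and Rbm3, with 0.996, 0.996 and 0.995. For Ctse they were Sptb (0.98), Slc38a5 (0.97) and Tal1 (0.97). These values rest on 7 points. For Ly6d and Ctse 1 of them lay far from the rest, and for S100g and Rbp2 the study's tumours lay far above the other tissues. With so few points, such values are high for many genes.

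Spots outside the tissue carried these RNAs as well. They held 27.3 to 43.0% of all UMIs in NEJ634, NEJ638, NEJ654, NEJ677 and NEJ723, 6.81% in NEJ687 and 0.407 to 3.27% in the NEJ146 sections. In NEJ723, off-tissue spots had 1032 CPM of S100g and 182 CPM of Rbp2, against 1101 and 244 CPM on tissue. In NEJ687 they had 62.2 CPM of Ctse (54.8 to 70.2) against 52.1. In NEJ146, spots under 8000 UMIs had 42.5, 47.5, 54.4 and 20.8 CPM of Ly6d and 109, 73.6, 35.5 and 84.7 CPM of Dct in sections 1 to 4. Off-tissue spots hold RNA that has spread from the tissue or tissue that was not called, which cannot be told apart, so a UMI in a single spot does not show expression at that spot.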

How the data were processed

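Counts of unique molecules per gene and spot, as deposited, were made by the authors with 10x software, for which the submitters' processing notes name Cell Ranger 6.0 and Space Ranger 1.3. The reads of 6 sections were aligned to mm10, and the build for NEJ146 is not given in the sources used here. For NEJ146, array positions were taken from the barcodes of the other sections, since the slide design is shared, and tissue spots were those with 8000 or more UMIs. Other tissue spots followed the deposited call. UMIs were summed over tissue spots and divided by the section's tissue total. Spot and patch CVs were moment estimates of the variance between spots, and of the covariance between adjacent spots, beyond counting noise, for genes with 500 or more UMIs. Likeness was Spearman's rho over blocks of 13 array rows by 16 columns with 100000 or more UMIs. Correlations between spots were moment estimates and could pass the usual limits of a correlation (1.03 for Cldn13 with Ctse in NEJ687).

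The members and gene lists were chosen with earlier results of these data known. Named genes were the 5 members, the 5 highest and 3 lowest by rho among genes at 20 CPM or more, the 3 most alike over tissues, the listed genes, the 5 measured neighbours on either side and Afp, Alb, Igf2 and H19. Genes past 4-fold and at its edges were named after their values were seen. No test of a comparison was made, and Dixon's outlier test was applied to groups of 4 NEJ146 sections. Gene positions were from GENCODE for GRCm38 (30934 of 31053 gene identifiers matched). The 4-fold rule and the spot and patch CVs were run on simulated counts, with a pass limit for the rule and the spot CV only. Covariances at longer distances and correlations between spots were not simulated. Python 3.11.15, numpy 2.4.6, scipy 1.17.1, pandas 2.3.3 and matplotlib 3.10.9 were used. Alternatives were other spot filters, block sizes, scalings, pseudocounts and thresholds, and each NEJ146 section left out.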

Additional observations from a re-analysis of the deposited data

Results flagged for a closer look

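The spot CV of Rbp2 in NEJ146 was 0.985 in section 1, apart from the other 3 sections at 0.928 to 0.936. The gap to the nearest section took 0.866 of the range of the 4 sections, past the limit of Dixon's test. It was the only one of 13 such groups of 4 sections to do so, and chance alone marks about 1 group in 20. The CPM of Rbp2 in section 1 was 32.4, within the range of the others.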

How the results depend on the processing

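Of 194 values under alternative settings, 92 equalled the reported value, mostly because the setting did not touch the samples or spots behind it, and say nothing of stability. A further 84 moved by less than the spread used for each value, 18 moved further and 0 reversed. For NEJ723 and NEJ687, with 1 section each, the spread of the CVs and of the rho was borrowed from the NEJ146 sections and is not their own. The rho of Ly6d and Dct (-0.84) was -0.80 with a higher UMI minimum for NEJ146 spots, -0.94 over blocks of 26 by 32, -0.78 over blocks of 6.5 by 8 and -0.86 as Pearson's r. The rho of S100g and Rbp2 in NEJ723 (0.15) was 0.0545, 0.187 and 0.167 under the last 3 of these. With 8000 or more UMIs per spot in every section, Rbp2 had a spot CV of 0.337 and a patch CV of 0.285, and Ctse a fold of 5.18. With median-of-ratios size factors the fold of Ctse was 5.32 and that of Dct 3.29. The count of genes past 4-fold in NEJ146 was 1 with a pseudocount of 5 CPM and 0 at 50 CPM or more, and that in NEJ687 was 2 and 1. At 8-fold it was 1 in NEJ723 and 0 in NEJ687. Other than by the settings' own construction, the cause was not tested.

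Without each NEJ146 section in turn, the fold was 11.99 to 14.1 for Ly6d, 2.61 to 2.98 for Dct and 5.79 to 6.13 for Ctse, and the rho of Ly6d and Dct was -0.84 to -0.83. The spot CV was 1.79 to 1.87 for Ly6d and 0.836 to 0.897 for Dct, and the patch CV 1.24 to 1.37 and 0.774 to 0.833. No paired analysis was possible, because no section of a tissue is paired with a section of another. Replicate numbers only count the sections within a tissue. With 1 section in 6 tissues, no spread between animals was measured, and genes with few UMIs, such as Ctse in NEJ146 section 4, gave no spatial estimate.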
